A study of Macaca mulatta with 12 samples.

Results

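Genes of cell proliferation and the cell cycle were followed in circulating B cells of rhesus macaques. The set was chosen by symbol and held 35 genes, of which 34 had a row among the 22584 genes listed in the deposited expression table. UBE2C, which works with the anaphase promoting complex, had no row under that symbol and was not analysed here. The animals were 6 healthy, unmanipulated juvenile macaques of Indian origin, 2 to 3 years old, which were sedated with ketamine or ketamine/dexmedetomidine for the blood draw. There was no treatment group, and the groups compared are classes of cells within an animal: class-switched (IgG, IgA or IgE) against unswitched (IgM or IgD), IgA against IgG, kappa against lambda light chain, and cells of expanded clonotypes against cells of single clonotypes. Both males were run in batch 1, and batch 2 held the 4 females; sex and batch cannot be told apart.

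A dividing cell copies its DNA in S phase, checks it in G2 and separates the copies in mitosis. MCM helicases, the clamp PCNA and the nucleotide-making enzymes serve the copying, cyclins and the kinase CDK1 drive entry into mitosis, WEE1 holds CDK1 back, and aurora kinases, BUB kinases, centromere proteins and kinesins move the chromosomes. Most B cells in blood are resting, whereas newly made plasmablasts on their way from lymphoid tissue can still be cycling.

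Each animal gave a 5' single-cell expression library and a library of its B cell receptors, and 13324 cells carried one of 12 B cell subtype names given by the authors. Unique molecular identifiers (UMIs) totalled 3642517 to 20023015 per animal. A B cell had a median of 4079 UMIs in male 1 and 4018 in male 2, against 5770 to 6736 in the 4 females. The 525 cells that the authors named Contamination were left out. All 13849 cells in the table carried the authors' doublet call Singlet and the broad label B, and 193 cells had a barcode that occurs in another library too. Heavy chain class was read from the receptor library for 10293 B cells, of which 2380 were switched and 7913 unswitched.

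The transcripts found were mostly those of a few genes. RRM1, the large subunit of ribonucleotide reductase, gave 5183 UMIs in 28.0% of B cells, WEE1 gave 3797 UMIs in 17.7%, and PCNA gave 2835 UMIs in 17.3%. STMN1, which destabilises microtubules, was found in 11.9% of B cells and CENPF, a kinetochore protein, in 7.77%. Those 5 genes carried 59.6% of all UMIs of the set. MKI67, the gene of the proliferation antigen Ki-67, gave 561 UMIs in 347 B cells (2.60%), and TOP2A, the topoisomerase that untangles DNA before mitosis, 658 UMIs in 572 cells. The lowest counts belonged to AURKB with 22 UMIs, TYMS (thymidylate synthase) with 36, BIRC5 (survivin) with 39, CDC20 with 48 and TK1 (thymidine kinase) with 52. These are counts of molecules found, not scaled by transcript length, so they say which genes were seen and not which gene was made most.

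A cell was scored by how many of the 34 genes had at least 1 UMI in it. At the depth of each cell, 22.7 ± 10.4% of B cells (SD, n = 6 animals) had counts of 3 or more genes, and after thinning every cell to 2000 UMIs the share was 2.59 ± 1.35%. Widely found genes made up most of the score at full depth: among the cells that reached 3 genes, 57.9% had RRM1, 42.4% WEE1 and 39.7% PCNA, whereas 7.77% had MKI67. A narrower score used the 22 genes left after taking away MCM2 to MCM7, PCNA, RRM1, STMN1, WEE1, CENPF and KIF23. This choice was made after the data were seen, and not by rarity alone, because TOP2A, found in more cells than KIF23, was kept. On that score 126 of 13324 B cells reached 3 genes and 14 reached 5.

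Antibody-secreting cells, 56 in all, had the highest mean share of any subtype. At own depth 69.2 ± 16.6% of them had 3 or more genes (n = 3 animals with at least 10 such cells), and 35.6 ± 22.2% after thinning to 2000 UMIs. At own depth single animals overlapped with other subtypes: 5 of 10 antibody-secreting cells of female 1 had 3 or more genes, or 50.0%, and 0 of 4 of female 2, against 54.6% and 52.8% of CD11c+ MBC 2 in the same animals. In the other subtypes thinning brought the share to between 0 and 5.18%. With the 22 genes of the narrower score and thinning, the share was 25.6 ± 13.5% in antibody-secreting cells. The means of the 11 other subtypes lay between 0 and 0.379%. Of the 14 B cells with 5 or more of those 22 genes, 13 were antibody-secreting cells. The genes taken away for that score included CENPF, WEE1 and KIF23, whose levels were raised in CD11c+ MBC 2 and C-MBC 1 in these data. The low shares of those subtypes on the 22 genes are therefore in part set by the choice of genes. The labels do not say on which features the authors based the subtype names. The names may rest on the same expression values, so differences between subtypes are given as a description with no test.

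**Figure D1:**
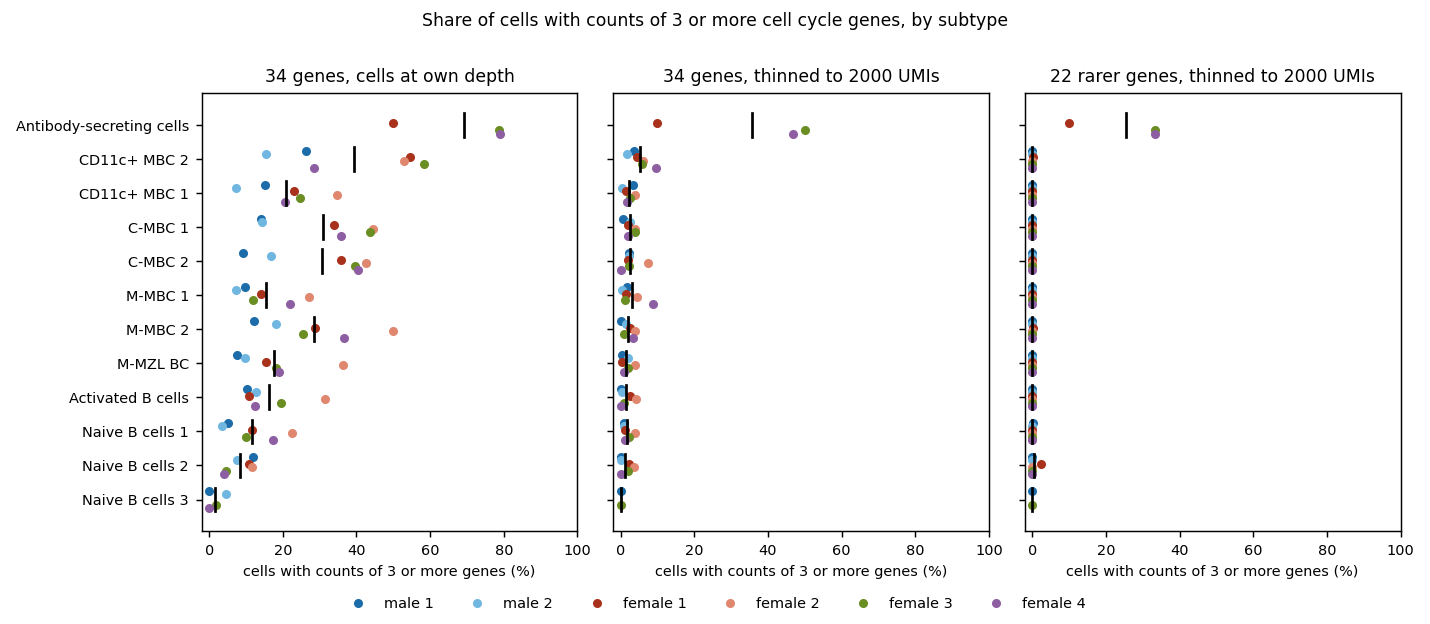
Percent of cells of each subtype with counts of 3 or more cell cycle genes (horizontal axis), for 34 genes at own depth (left), 34 genes after thinning to 2000 UMIs (middle) and the 22 genes of the narrower score after thinning (right). Points are animals with at least 10 cells and bars are means. Antibody-secreting cells stay at 25.6% in the right panel, where no other subtype's mean exceeds 0.379%.

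Among the other subtypes, 4 of the 6 memory subtypes had the highest mean shares at own depth, and the 3 naive subtypes the lowest. CD11c+ MBC 2 had 39.3 ± 18.0% of cells with 3 or more genes, C-MBC 1 had 31.0 ± 13.7%, C-MBC 2 had 30.7 ± 14.1% and M-MBC 2 had 28.5 ± 13.5% (n = 6 animals each). CD11c+ MBC 1 followed with 20.9 ± 9.25%, and M-MBC 1 had 15.3 ± 7.61%, below M-MZL BC with 17.7 ± 10.2% and Activated B cells with 16.2 ± 8.14%. Naive B cells 1 were at 11.7 ± 7.23%, Naive B cells 2 at 8.47 ± 3.57%, and Naive B cells 3 at 1.57 ± 2.15% (n = 4). The median depth was 8161 UMIs in CD11c+ MBC 2 and 4087 in Naive B cells 1. After thinning, CD11c+ MBC 2 kept 5.18 ± 2.64% and Naive B cells 1 had 1.69 ± 1.19%, and the means of the remaining subtypes lay between 0 and 2.98%.

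In antibody-secreting cells MKI67 had the most UMIs of the set. Levels from here on are CPM, counts per 1000000 counts of named genes that are not immunoglobulin genes, summed over the cells of an animal, and in such sums more cycling cells and more RNA per cycling cell cannot be told apart. The summed MKI67 level of antibody-secreting cells was 136 CPM in female 1, 1315 CPM in female 3 and 1313 CPM in female 4, the animals with at least 10 such cells. Female 1 was well below female 3 and female 4, and every value was above the highest subtype sum outside these cells, 30.6 CPM. MKI67 was found in 33 of the 56 cells, or 58.9% (exact 95% interval 45.0 to 71.9%, counting error only), against 10 of 1614 Naive B cells 1, or 0.620%; the median depths were 5554 and 4087 UMIs. After thinning to 2000 UMIs the shares were 38.8% and 0.318%. The denominator is smaller in these cells, because 51.2% of their UMIs came from unnamed identifiers and immunoglobulin genes, against 13.6 to 19.4% in the other subtypes.

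The animals differed in how many of their antibody-secreting cells had MKI67. It was present in 2 of 2 cells of male 1, 0 of 7 of male 2, 4 of 10 of female 1, 1 of 4 of female 2, 11 of 14 of female 3 and 15 of 19 of female 4. With 0 of 7 cells the exact interval for male 2 reaches 41.0%. The median depth of these cells was 3966.5 UMIs in female 3 and 3696 UMIs in female 4, where most cells had MKI67, and 19801 UMIs in female 1 and 5876 UMIs in male 2. Cells with MKI67 had a median of 4714 UMIs and those without it 13146. By heavy chain, MKI67 was found in 13 of 15 IgA cells, 3 of 10 IgG cells, 0 of 5 IgM cells (upper bound 52.2%), 1 of 2 IgE cells and 16 of 24 cells with no single class. Cells of the same animal are not replicates, so no test was made of these counts.

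Other genes of mitosis and replication were also high in antibody-secreting cells. CENPE, a kinesin that moves chromosomes at the centromere, averaged 209 ± 150 CPM there, TOP2A 163 ± 132 CPM and NUSAP1, which bundles spindle microtubules, 75.2 ± 57.8 CPM (SD, n = 3 animals). RRM2, the small and S phase-bound subunit of ribonucleotide reductase, averaged 140 ± 133 CPM, and MCM7 154 ± 130 CPM. The highest mean of any other subtype was 14.5 CPM for CENPE, 14.5 CPM for TOP2A, 29.4 CPM for NUSAP1, 9.53 CPM for RRM2 and 49.6 CPM for MCM7. Not every gene followed. WEE1 averaged 43.9 ± 24.9 CPM and RRM1 63.1 ± 52.2 CPM in antibody-secreting cells, inside the range of the other subtypes, and the log2 difference from the mean of 10 other subtypes was -0.82 ± 0.75 for WEE1 and -0.76 ± 0.51 for RRM1 (± SE), against 6.73 ± 0.33 for MKI67. PCNA averaged 76.3 ± 57.6 CPM in antibody-secreting cells and differed by 0.07 ± 0.47. CCNB2 and CDK1 gave 2 UMIs each in the 56 cells, and AURKA gave 1, so their levels there were at or under the floor of 3 counts.

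The label of these cells was checked against markers. The summed level of 8 antibody-secreting cell markers was 1946 to 28076 CPM in them. Of 6 B cell markers none was at 0, and their sum was 888 to 1659 CPM. Monocyte markers summed to 0 to 46.9 CPM with CD14, S100A8, S100A9 and FCN1 at 0, and T cell markers to 209 to 680 CPM with CD8B at 0; what part they have in the values above was not tested.

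**Figure D2:**
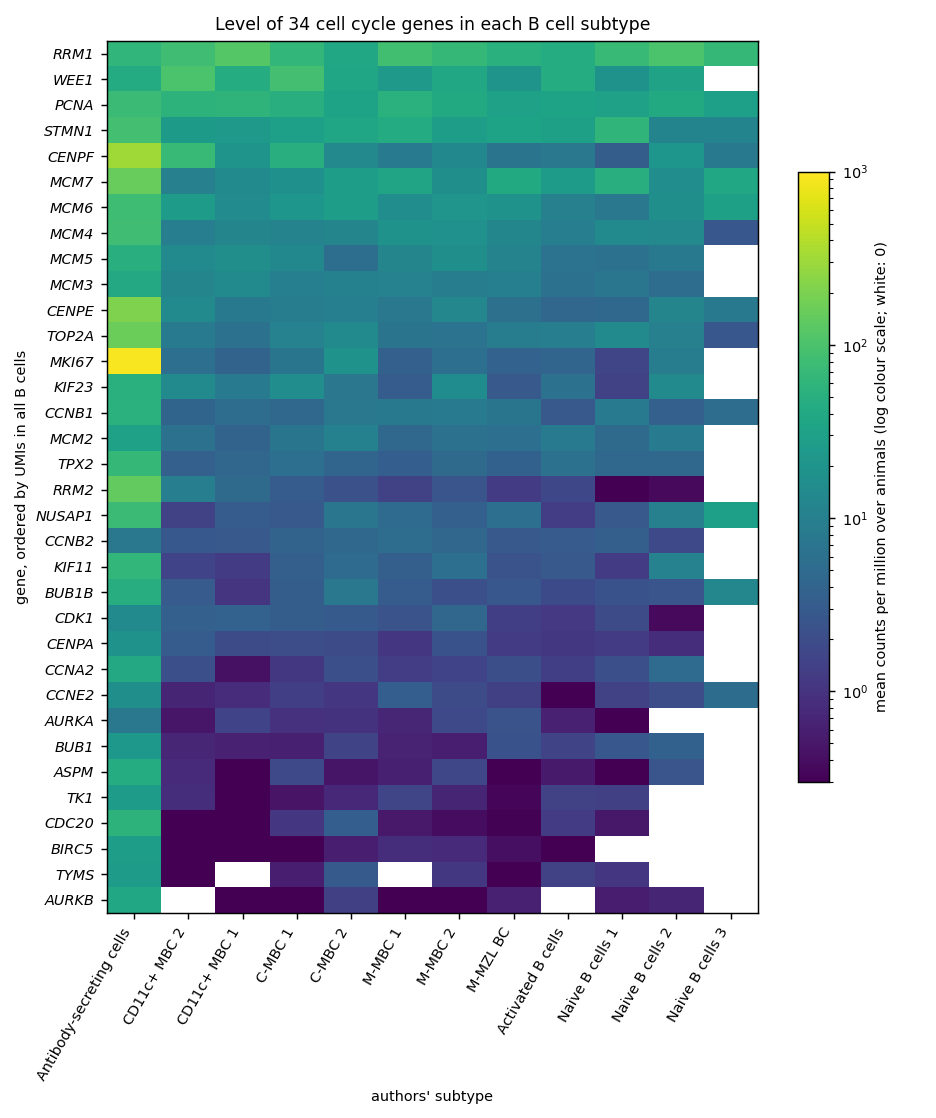
Mean CPM over animals of 34 cell cycle genes (rows, ordered by UMIs in all B cells) in 12 subtypes (columns), on a log colour scale with 0 in white. MKI67 in antibody-secreting cells is the brightest cell, and CENPF and WEE1 are bright in CD11c+ MBC 2 and C-MBC 1.

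CENPF and WEE1 formed another pattern, in memory cells with far less MKI67 than antibody-secreting cells. CENPF reached 26.4, 23.9, 57.6, 120, 138 and 70.9 CPM in CD11c+ MBC 2 of male 1, male 2, female 1, female 2, female 3 and female 4, against 0.628, 2.22, 3.49, 4.27, 6.69 and 2.20 CPM in Naive B cells 1 of the same animals. WEE1 reached 56.8, 51.9, 149, 39.2, 216 and 81.5 CPM in CD11c+ MBC 2, against 19.5, 16.7, 8.73, 17.1, 36.1 and 13.2 CPM in Naive B cells 1. For both genes the lowest CD11c+ MBC 2 value lay above the highest naive one. MKI67 in CD11c+ MBC 2 was 1.32, 3.99, 16.6, 2.77, 6.55 and 3.54 CPM, against 3.77, 1.11, 4.37, 0, 0.669 and 0 CPM in Naive B cells 1. Those ranges overlapped, but within animals MKI67 was lower in CD11c+ MBC 2 only in male 1 and higher in the others. It was found in 58 of 1527 CD11c+ MBC 2 cells, against 10 of 1614 Naive B cells 1, at median depths of 8161 and 4087 UMIs.

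C-MBC 1 resembled CD11c+ MBC 2. CENPF averaged 48.6 ± 28.2 CPM and WEE1 88.0 ± 52.1 CPM there, and KIF23, a kinesin of cytokinesis, 16.2 ± 5.07 CPM, against 1.42 ± 1.35 CPM in Naive B cells 1. Against the mean of the other subtypes, CENPF differed by 2.22 ± 0.16 in CD11c+ MBC 2 and 1.55 ± 0.17 in C-MBC 1 on the log2 scale, and WEE1 by 1.65 ± 0.17 and 1.44 ± 0.17. Both genes were above the rest of the same animal's B cells in 6 of 6 animals in each of these subtypes. CENPF was found in 27.4% of CD11c+ MBC 2 cells and 1.18% of Naive B cells 1, and in 11.2% and 0.382% after thinning to 2000 UMIs. WEE1 was found in 47.3% and 6.20% at own depth, and in 305 of 1525 cells and 45 of 1572 cells after thinning.

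Within CD11c+ MBC 2, most cells with CENPF had neither MKI67 nor TOP2A. MKI67 or TOP2A was found in 43 of 419 cells with CENPF (10.3%), against 101 of 1108 cells without it (9.12%), at median depths of 9266 and 7649.5 UMIs. For WEE1 the counts were 74 of 722 cells with it (10.2%), against 70 of 805 without it (8.70%). In antibody-secreting cells MKI67 or TOP2A was present in 19 of 20 cells with CENPF, against 16 of 36 cells without it. In C-MBC 1 the counts were 23 of 194 cells with CENPF (11.9%), against 87 of 1096 without it (7.94%). The shares were 8.50% and 4.08% in CD11c+ MBC 1, 13.3% and 4.08% in M-MBC 1, and 16.1% and 7.90% in M-MBC 2. C-MBC 2 went the other way, with 3 of 30 cells (10.0%) against 68 of 445 (15.3%). Cells with CENPF had the higher median depth in each of these memory subtypes. These are counts of cells that share 6 libraries, and no test was made.

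C-MBC 2 was the subtype with the next highest MKI67 level after antibody-secreting cells. Its values were 23.3, 27.8, 30.6, 7.21, 16.4 and 11.5 CPM, above the rest of the same animal's B cells in 5 of 6 animals, with a log2 difference of 1.33 ± 0.34 from the mean of the other subtypes. MKI67 was found in 42 of 475 cells (8.84%), or 4.06% after thinning. By class, pooled over animals at own depth, it was found in 12 of 90 IgA cells, 18 of 168 IgG cells and 2 of 61 IgM cells of this subtype. CENPF and WEE1 were lower here than in C-MBC 1, at 13.5 ± 6.06 CPM and 36.8 ± 12.4 CPM.

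The replication and microtubule genes divided the subtypes differently. MCM7, a subunit of the replicative helicase, averaged 49.6 ± 32.1 CPM in Naive B cells 1, 40.8 ± 17.2 CPM in M-MZL BC and 34.2 ± 15.5 CPM in M-MBC 1, and 10.4 ± 3.92 CPM in CD11c+ MBC 2. It was above the rest of the animal's B cells in 6 of 6 animals in each of the first 3 of these. MCM6, its partner in the helicase, went another way, with 7.83 ± 6.11 CPM in Naive B cells 1 and 26.0 ± 8.33 CPM in CD11c+ MBC 2. STMN1 averaged 59.9 ± 34.3 CPM in Naive B cells 1 and 11.8 ± 10.2 CPM in Naive B cells 2. RRM1 was highest in CD11c+ MBC 1 with 118 ± 34.4 CPM, and PCNA averaged 58.3 ± 22.3 CPM there, and 57.6 ± 25.04 CPM in CD11c+ MBC 2. Naive B cells 3, with 125 cells, had no UMI of MKI67 or WEE1.

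By heavy chain class, CENPF averaged 22.9 ± 22.9 CPM in IgA cells (n = 5 animals), 53.1 ± 34.8 CPM in IgG cells, 11.8 ± 5.91 CPM in IgM cells and 7.45 ± 5.65 CPM in IgD cells (n = 6 each). WEE1 was at 35.9 ± 15.9, 87.4 ± 54.2, 30.2 ± 11.5 and 23.9 ± 13.6 CPM in IgA, IgG, IgM and IgD cells. MKI67 had another order, with 80.5 ± 67.6 CPM in IgA cells, 9.35 ± 5.41 CPM in IgG cells, 4.50 ± 2.63 CPM in IgM cells and 2.81 ± 2.37 CPM in IgD cells. The share of cells with 3 or more of the 34 genes was 38.0 ± 18.6% in IgA, 31.4 ± 15.1% in IgG, 19.5 ± 10.1% in IgM and 14.0 ± 9.74% in IgD cells at own depth. After thinning it was 5.22 ± 6.36%, 2.96 ± 1.27%, 1.78 ± 0.794% and 1.94 ± 1.35%. The ranges of mean ± SD of neighbouring classes overlapped on both scales.

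Switched B cells had more CENPF, WEE1, MKI67, RRM2, KIF23, MCM6 and PCNA transcript than unswitched cells of the same animals, and less MCM7. Class came from the receptor library and not from the expression counts. With edgeR's quasi-likelihood test, the animal as block and Benjamini-Hochberg adjustment over 9649 genes, 7 of the 22 members tested were called higher and 1 lower at an adjusted p under 0.05. Across all genes 25% were called, 13.3% higher and 11.7% lower. The other 12 members with a row did not pass the low-count filter. They were ASPM, AURKA, AURKB, BIRC5, BUB1, CCNA2, CCNE2, CDC20, CDK1, CENPA, TK1 and TYMS. The median log2 difference was 0.33 over the 22 members and -0.00 over all genes.

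CENPF showed the clearest difference. It was at 11.6, 26.5, 37.6, 77.5, 104 and 47.2 CPM in switched cells of male 1, male 2, female 1, female 2, female 3 and female 4, against 3.03, 7.41, 11.8, 16.9, 16.9 and 10.9 CPM in unswitched cells. All 6 animals were higher in switched cells, and the groups overlapped only through male 1, whose switched value lay under 3 of the unswitched ones. The log2 difference was 2.15 ± 0.14 (SE; adjusted p = 6.44e-08, edgeR's quasi-likelihood test). CENPE, the other centromere gene of the set that was tested, differed by 0.33 ± 0.19 and was not called (adjusted p = 0.255, edgeR's quasi-likelihood test).

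Among the cyclins, CDK1 and their inhibitor, CDK1, CCNA2 and CCNE2 did not pass the low-count filter. Of CCNB1, CCNB2 and WEE1, which were tested, only WEE1 was called. It was at 46.6, 51.3, 118, 34.3, 171 and 77.7 CPM in switched cells, against 16.7, 25.6, 34.95, 24.5, 49.2 and 21.8 CPM in unswitched cells, higher in 6 of 6 animals. The log2 difference was 1.47 ± 0.14 (adjusted p = 2.71e-06, edgeR's quasi-likelihood test). CCNB2, a cyclin of mitosis, was higher in 6 of 6 animals by 0.72 ± 0.25 but missed the threshold (adjusted p = 0.0512, edgeR's quasi-likelihood test), and CCNB1 differed by -0.16 ± 0.24.

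MKI67 was at 9.98, 12.8, 22.5, 4.42, 13.6 and 30.5 CPM in switched cells, against 5.49, 5.05, 8.43, 1.12, 2.74 and 3.02 CPM in unswitched cells. It was higher in 6 of 6 animals, and only female 2's switched value lay among the unswitched ones. The log2 difference was 1.72 ± 0.23 (adjusted p = 5.97e-05, edgeR's quasi-likelihood test). Antibody-secreting cells made up 1.13% of switched cells and 0.0632% of unswitched cells, and without them the difference was 1.18 (adjusted p = 0.000213, edgeR's quasi-likelihood test). TOP2A was at 7.48, 15.6, 12.2, 12.8, 9.60 and 10.2 CPM in switched cells, against 7.51, 18.5, 7.09, 6.30, 5.72 and 7.26 CPM in unswitched cells. Both males were lower or level in switched cells and the 4 females higher, and TOP2A was not called (0.51 ± 0.18, adjusted p = 0.0537, edgeR's quasi-likelihood test).

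Of the enzymes that make nucleotides, RRM2 was called and RRM1 was not. RRM2 was at 3.33, 7.32, 7.31, 5.40, 8.88 and 2.78 CPM in switched cells, against 2.60, 1.26, 4.11, 5.17, 4.17 and 1.81 CPM in unswitched cells, a log2 difference of 0.89 ± 0.26 with all 6 animals higher (adjusted p = 0.0199, edgeR's quasi-likelihood test). RRM1 averaged 79.3 ± 30.4 CPM in switched cells and 78.1 ± 25.1 CPM in unswitched cells (SD, n = 6 each). PCNA was at 70.7, 25.6, 34.1, 37.3, 69.6 and 65.7 CPM in switched cells, against 48.2, 26.5, 27.9, 39.1, 48.5 and 47.2 CPM in unswitched cells. It was higher in 4 of 6 animals, by 0.33 ± 0.10 on the log2 scale (adjusted p = 0.0218, edgeR's quasi-likelihood test). The calls of RRM2 and PCNA rested on single animals: RRM2 was not called without female 1 (adjusted p = 0.0578, edgeR's quasi-likelihood test) or female 3 (0.126), nor PCNA without female 3 (0.149), female 4 (0.0584) or male 1 (0.0636).

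The MCM helicase subunits did not move together. MCM6 was at 20.8, 29.3, 21.4, 25.02, 19.9 and 18.5 CPM in switched cells, against 11.4, 24.9, 10.3, 20.5, 12.03 and 16.3 CPM in unswitched cells, higher in 6 of 6 animals by 0.61 ± 0.14 (adjusted p = 0.00399, edgeR's quasi-likelihood test). MCM7 was at 10.8, 11.9, 12.7, 25.5, 16.1 and 23.1 CPM in switched cells, against 21.1, 15.1, 20.3, 45.0, 29.2 and 39.9 CPM in unswitched cells. It was lower in 6 of 6 animals, by -0.76 ± 0.11 (adjusted p = 9.58e-05, edgeR's quasi-likelihood test). MCM2, MCM3, MCM4 and MCM5 differed by 0.19, 0.08, -0.34 and 0.13, and none was called.

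KIF23 was the called member among the spindle genes that were tested. It was at 13.3, 10.98, 7.58, 16.2, 13.8 and 9.25 CPM in switched cells, against 5.78, 8.52, 5.14, 14.2, 4.65 and 5.44 CPM in unswitched cells. All 6 animals were higher in switched cells, by 0.81 ± 0.20 (adjusted p = 0.00815, edgeR's quasi-likelihood test). Without female 3 the difference was 0.55 and KIF23 was not called (adjusted p = 0.0794, edgeR's quasi-likelihood test). Leaving out female 3 also lowered the counts of calls, to 5 members and 1569 genes, against 8 members and 2416 genes with all animals. STMN1 was at 24.1, 24.7, 25.7, 51.5, 29.3 and 22.2 CPM in switched cells, against 23.2, 23.5, 36.4, 53.5, 26.9 and 43.5 CPM in unswitched cells, and did not pass the test (-0.17 ± 0.13, adjusted p = 0.375, edgeR's quasi-likelihood test). TPX2, NUSAP1 and KIF11 differed by 0.00, 0.03 and 0.43 and were not called, nor was BUB1B, a spindle checkpoint kinase (0.58 ± 0.29).

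**Figure D3:**
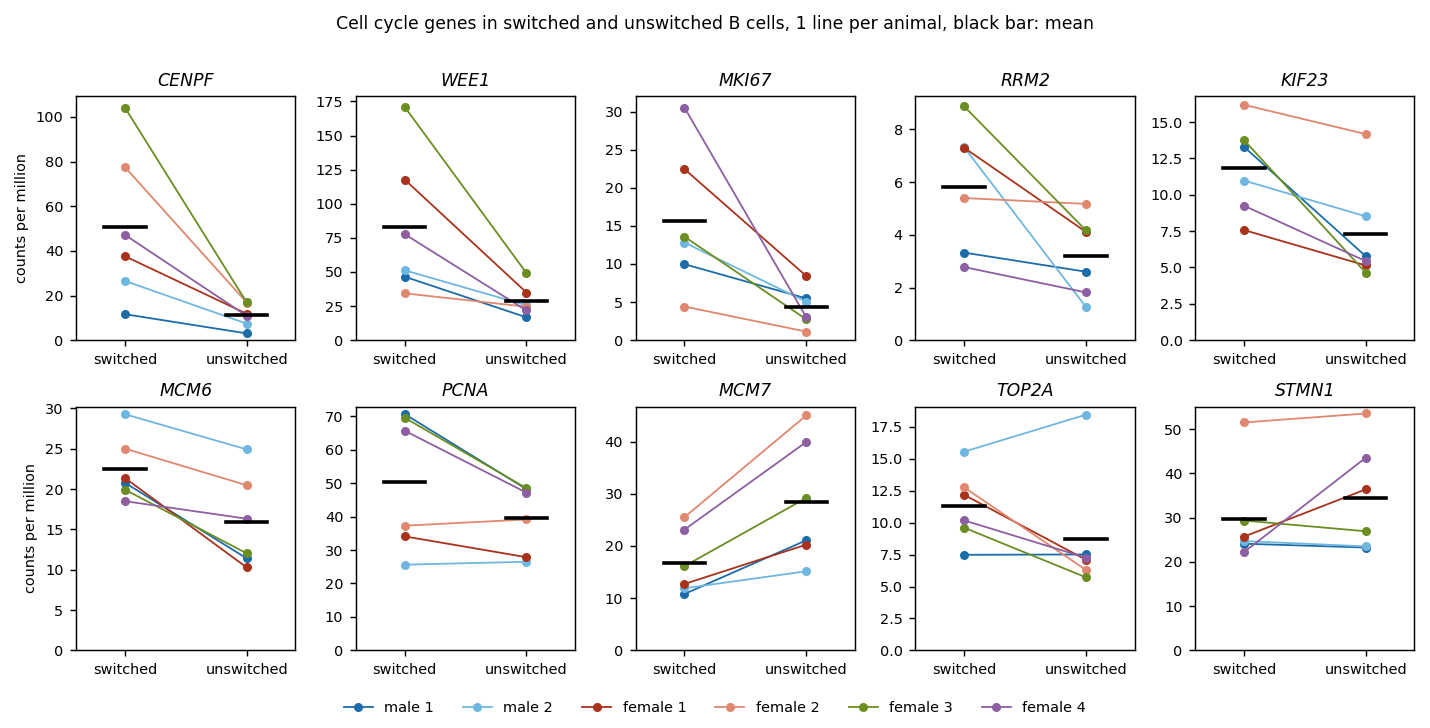
CPM of 10 cell cycle genes (vertical axes, each from 0) in switched and unswitched B cells, with 1 line per animal and a black bar at the mean. The switched point lies above the unswitched one for CENPF, WEE1, MKI67, RRM2, KIF23 and MCM6 in all 6 animals, and below it for MCM7 in all 6.

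Switched and unswitched cells differed in subtype. CD11c+ MBC 2 and C-MBC 1, where CENPF and WEE1 were high, made up 28.8% and 28.3% of switched cells, against 3.84% and 2.30% of unswitched cells. Naive B cells 1 and M-MZL BC, where MCM7 was high, made up 0.168% and 1.51% of switched cells, against 18.4% and 17.04% of unswitched cells. Markers of other cell types summed to 78.1 to 331 CPM in switched cells and 119 to 377 CPM in unswitched cells for T cells, and to 100 to 201 CPM and 175 to 439 CPM for monocytes, with no marker of either list at 0. Their part in the differences was not tested.

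Within the 6 memory subtypes, the ones with MBC in their name, 4 of 19 members tested were called, all higher in switched cells, while 14% of 9247 genes were called, 7.11% higher and 6.93% lower. CENPF was at 12.5, 28.1, 36.9, 81.7, 104 and 41.8 CPM in switched memory cells, against 4.06, 10.8, 14.6, 21.0, 21.7 and 21.1 CPM in unswitched memory cells, and WEE1 at 48.1, 51.4, 120, 35.7, 173 and 78.6 CPM, against 21.8, 27.0, 41.1, 26.6, 56.6 and 33.7 CPM. Both were higher in 6 of 6 animals, CENPF by 1.81 ± 0.14 (adjusted p = 8.30e-08) and WEE1 by 1.30 ± 0.12 (adjusted p = 8.18e-07), with edgeR's quasi-likelihood test. MKI67 was at 8.91, 13.6, 19.0, 4.14, 5.92 and 6.97 CPM in switched memory cells, against 6.28, 7.10, 9.48, 0.928, 3.77 and 4.21 CPM, and differed by 0.91 ± 0.20 in 6 of 6 animals (adjusted p = 0.00523, edgeR's quasi-likelihood test). Without female 1 this call was lost (adjusted p = 0.0728, edgeR's quasi-likelihood test). MCM6 differed by 0.46 ± 0.15 in 4 of 6 animals (adjusted p = 0.0449, edgeR's quasi-likelihood test), a call lost without female 1 (0.224), female 2 (0.103), female 3 (0.154) or male 1 (0.117).

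MCM7, RRM2, KIF23 and PCNA were not called within memory cells, with log2 differences of -0.33, 0.22, 0.38 and 0.12. When the memory subtype was held as a second block beside the animal, 27 pairs of sums remained, of 10 to 522 cells each, and 5.17% of 5049 genes were called. Of the members WEE1, RRM1, PCNA and STMN1 could be tested in that fit. WEE1 was called at 0.90 ± 0.10 (adjusted p = 3.44e-10, edgeR's quasi-likelihood test), and RRM1, PCNA and STMN1 were not. The 27 pairs came from 6 animals, and pairs of the same animal counted as separate replicates of the switched effect. The p-values and calls of that fit therefore overstate the evidence over animals. CENPF and MKI67 did not pass its filter on low counts. Within CD11c+ MBC 2, CENPF was found in 207 of 682 IgG cells, against 45 of 272 IgM cells, and within C-MBC 1 in 129 of 659 IgG cells, against 7 of 166 IgM cells. WEE1 was found in 362 of the 682 IgG cells of CD11c+ MBC 2, against 106 of the 272 IgM cells. These counts pool cells of all animals at own depth, and the animals differed in class mix and depth. Over all subtypes male 1 had 258 IgG and 1319 IgM cells at a median of 4079 UMIs, and female 3 had 773 and 1235 at 6057. Class therefore cannot be told apart from animal and depth in these counts, and no test was made of them.

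IgA and IgG cells differed in opposite directions for MKI67 and for WEE1 and CENPF. Female 2 had 8 IgA cells and was left out, so 5 animals with 21 to 41 IgA cells each were compared. Of 8 members tested, 1 was called higher and 2 lower in IgA cells, while 13.1% of 6559 genes were called, 5.09% higher and 7.96% lower. MKI67 was at 16.9, 54.8, 59.5, 76.2 and 195 CPM in IgA cells of male 1, male 2, female 1, female 3 and female 4, against 9.22, 5.28, 19.2, 10.8 and 7.47 CPM in IgG cells. All 5 animals were higher in IgA cells, and only male 1's IgA value lay under an IgG value of another animal. The log2 difference was 2.64 ± 0.37 (adjusted p = 1.4e-05, edgeR's quasi-likelihood test). MKI67 passed the low-count filter through its IgA sums, because most of its IgG values lay under the filter's cut. Its entry into the test thus depended on the group where it was high. Its call, and its place in the count of members called, are limited by that.

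Antibody-secreting cells made up 9.80% of IgA cells and 0.451% of IgG cells, and their markers summed to 744 to 2729 CPM in IgA cells, against 396 to 623 CPM in IgG cells. Without them the MKI67 difference was 1.53 (adjusted p = 0.0302, edgeR's quasi-likelihood test). MKI67 went through the same low-count filter in that fit, so the limit given above holds for this call too. C-MBC 2 made up 58.8% of IgA cells and 7.58% of IgG cells. WEE1 was lower in IgA cells in 5 of 5 animals, at 16.9, 39.2, 26.4, 59.2 and 37.5 CPM, against 49.8, 52.8, 126, 176 and 84.3 CPM in IgG cells, by -1.62 ± 0.26 (adjusted p = 6.9e-05, edgeR's quasi-likelihood test). CENPF was at 0, 0, 23.1, 46.5 and 45.0 CPM in IgA cells, against 12.9, 30.6, 38.7, 107 and 48.0 CPM in IgG cells. It was lower in 5 of 5 animals, by -1.08 ± 0.34 (adjusted p = 0.0355, edgeR's quasi-likelihood test), and by -2.56 without antibody-secreting cells (adjusted p = 6.98e-05, edgeR's quasi-likelihood test). The CENPF call was lost without male 1 (adjusted p = 0.0549, edgeR's quasi-likelihood test), male 2 (0.0689), female 1 (0.0559) or female 3 (0.268). PCNA, MCM5, MCM6, STMN1 and RRM1 were tested and not called. The other members with a row had too few counts to be tested in sums of this size.

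**Figure D4:**
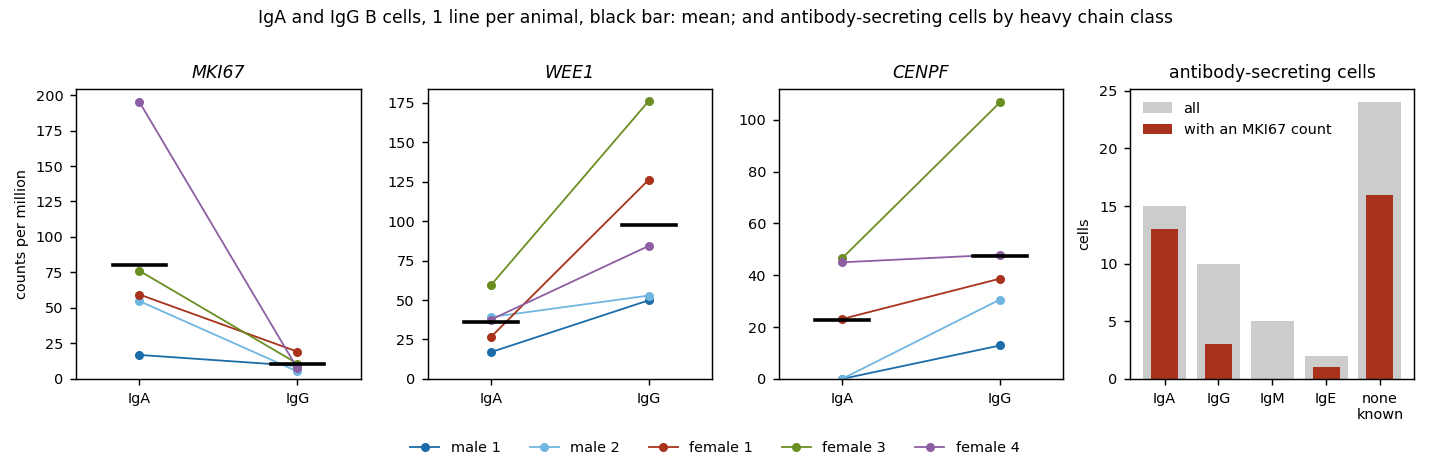
CPM of MKI67, WEE1 and CENPF in IgA and IgG B cells of 5 animals (first 3 panels, 1 line per animal, black bar at the mean), and number of antibody-secreting cells with an MKI67 count (red) among all (grey) by heavy chain class (last panel). MKI67 is higher in IgA cells of every animal, WEE1 and CENPF lower, and 13 of 15 IgA antibody-secreting cells have MKI67.

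The share of cells with 3 or more of the 34 genes was also compared over animals. It was 16.7, 12.3, 38.8, 45.6, 46.2 and 34.5% in switched cells of male 1, male 2, female 1, female 2, female 3 and female 4, against 8.51, 7.89, 19.6, 33.7, 19.6 and 21.3% in unswitched cells. The difference of 13.9 points held in 6 of 6 animals and gave the smallest p that 6 animals allow (exact two-sided sign-flip permutation test, p = 0.03125), or 0.133 adjusted over 6 comparisons. The median depth was 6770.5 UMIs in switched cells and 5067 UMIs in unswitched cells. After thinning to 2000 UMIs the shares were 3.20 ± 1.497% and 1.87 ± 0.909%, again higher in 6 of 6 animals. At 1000 UMIs switched cells were lower in male 1 (0 against 0.326%) and female 2 (0.338 against 0.400%), and higher in the other animals. Within memory cells the shares were 32.3 ± 14.7% in switched and 23.0 ± 10.7% in unswitched cells (exact permutation p = 0.0625), and thinning to 1000 UMIs turned the difference of 9.24 points to -0.0923. For IgA against IgG the shares in 5 animals were 38.0 ± 18.6% and 28.5 ± 14.8% (exact permutation p = 0.25, smallest possible 0.0625).

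Other genes of the cell cycle were taken from 3 lists. Of 19 tested S phase and replication genes, 1 was higher and 1 lower in switched cells: UNG, the uracil glycosylase that also acts in class switching, by 0.98 ± 0.26 (4 of 6 animals higher), and POLD3, a DNA polymerase delta subunit, by -0.70 ± 0.08. Of 20 tested G2 and mitosis genes, 4 were higher and 1 lower. PTTG1 (securin) was higher by 1.02 ± 0.15, CENPM, a centromere protein, by 0.64 ± 0.13 and ECT2, which acts in cytokinesis, by 1.12 ± 0.27, and TACC3, a spindle protein, was lower by -0.77 ± 0.11. Of 19 tested G1 regulators and brakes, 3 were higher and 4 lower. CDK6, the kinase of D-type cyclins, was higher by 0.48 ± 0.10, and E2F5, a repressor, and CCNG2, a cyclin of arrested cells, were lower by -0.94 ± 0.10 and -0.62 ± 0.09. CDKN2C and TFDP1 were also called higher, by 0.53 ± 0.16 and 0.34 ± 0.10. CCND3 and CDKN1C were also called lower, by -0.27 ± 0.08 and -0.76 ± 0.19. The median log2 differences of the lists were 0.12, 0.24 and 0.00, beside -0.00 over all genes. The shares called, 2 of 19, 5 of 20 and 7 of 19, stand beside the 25% of all genes called in this comparison.

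Within memory cells CENPM differed by 1.34 ± 0.13 and CDK6 by 0.82 ± 0.13, both higher in 6 of 6 switched sums, and E2F5 by -0.54 ± 0.10. In IgA against IgG cells CENPM was higher by 2.09 ± 0.19 in 5 of 5 animals (adjusted p = 3.31e-08, edgeR's quasi-likelihood test). CKS2, a CDK-binding subunit, was lower by -0.84 ± 0.19, RBL1, a retinoblastoma family brake, by -0.79 ± 0.22 and SLBP, which binds histone transcripts, by -0.62 ± 0.20. Of 10 tested G2 and mitosis genes 1 was higher and 1 lower there, of 8 S phase genes 1 was lower, and of 15 G1 genes 2 were lower, beside 13.1% of all genes called, 5.09% higher and 7.96% lower.

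Light chain, clone size and sex gave no call among the members with edgeR's quasi-likelihood test on all animals. For kappa against lambda, 0 of 23 members were called by edgeR's quasi-likelihood test (1 at an unadjusted p under 0.05, and 0 by DESeq2), beside 0.0927% of 9705 genes (0.0412% higher and 0.0515% lower). For expanded against single clonotypes, 0 of 15 were called by edgeR's test (3 unadjusted, 0 by DESeq2), beside 1.86% of 8498 genes (0.741% higher and 1.12% lower). MCM6 was at 13.9, 23.5, 29.0, 28.5, 44.9 and 36.0 CPM in expanded clones of male 1, male 2, female 1, female 2, female 3 and female 4, against 12.7, 25.6, 12.5, 21.97, 14.4 and 17.2 CPM in single clonotypes. It was higher in 5 of 6 animals (0.83 ± 0.28, adjusted p = 0.117, edgeR's quasi-likelihood test), on 1 to 20 counts in each expanded sum. Without male 2 the difference was 1.17 and MCM6 was called (adjusted p = 0.035, edgeR's quasi-likelihood test). MKI67 had no count in expanded clones of male 1, female 2 and female 4, which held 10 to 34 such cells. The shares of cells with 3 or more genes were 22.5 ± 14.0% in expanded and 22.4 ± 11.2% in single clonotypes, with animal differences of -7.24 to 11.5 points.

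Males against females gave 0 of 32 called members by edgeR's quasi-likelihood test (5 unadjusted, 1 by DESeq2), beside 0.34% of 11180 genes (0.224% higher and 0.116% lower). CENPF was at 6.42 and 10.9 CPM in B cells of the 2 males, against 21.9, 50.2, 56.1 and 29.6 CPM in the 4 females, and the groups did not overlap. The log2 difference was -2.06 ± 0.47 (adjusted p = 0.111, edgeR's quasi-likelihood test), and DESeq2 called it. CD11c+ MBC 2 made up 5.14% of the males' B cells and 15.8% of the females'. At own depth the share with 3 or more genes was 10.5 ± 0.132% in males and 28.7 ± 5.77% in females. The exact label permutation test gave p = 0.0667, the smallest that 2 against 4 animals allow. The pooled median depth was 4045 UMIs in males and 6218 UMIs in females. After thinning to 2000 UMIs the shares were 1.35 and 1.02% in the 2 males, against 2.04, 4.49, 3.06 and 3.58% in the 4 females. At 1000 UMIs the pooled shares were 0.368% in males and 0.575% in females, and female 1 lay between the 2 males. Sex and batch cannot be told apart in these differences. The difference in the switched effect between males and females was tested as an interaction, and 0 of 22 members and 0% of 9649 genes were called by edgeR's test (2 members and 623 genes unadjusted). The member with the smallest p was TOP2A, with effects of -0.16 in males and 0.79 in females (adjusted p = 0.704, edgeR's quasi-likelihood test).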

How the data were processed

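The authors deposited raw UMI counts of genes in single cells, a cell table with subtype names and the percent of mitochondrial and ribosomal UMIs, and receptor contigs with UMI counts. Per the submitters' processing notes, the tools were Cell Ranger 9.0.1, Seurat 5.0.1 and R 4.3.1. The genome build and annotation are not given in the sources used here. Cells were not filtered further, and doublets were not called anew.

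The 5813 unnamed identifiers (14.9% of UMIs, none matched to a name) and 23 immunoglobulin genes (0.186%) were left out of totals and tests. UMIs per cell ran from 500 to 39732. Class came from exactly 1 productive heavy chain; 2636 B cells had none and 282 had 2 or more. Within each animal the counts of a class were added up, given at least 10 cells. The test was edgeR's quasi-likelihood F test (version 4.0.16, R 4.3.3) after filterByExpr and TMM scaling. The animal was a block because both classes come from the same animals. P-values were Benjamini-Hochberg adjusted over all genes tested. Alternatives were DESeq2 1.42.0, no block, RLE scaling, no filter, larger sums, and leaving out animals or antibody-secreting cells. Shares were compared by exact permutation (scipy 1.17.1), and thinning was random without replacement (seed 1). The edgeR script was tested on simulated data. Values in every animal are given for members called in switched cells and for MKI67, TOP2A, CENPF, PCNA and STMN1, and up to 3 genes with the smallest p per pathway list and direction. The members and lists were chosen with earlier results of these data known. Promoter sequences were not analysed here. Spread over animals includes technical noise of each library.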

Additional observations from a re-analysis of the deposited data

Results flagged for a closer look

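STMN1 in switched cells of female 2 stood at 51.5 CPM, far above the other 5 animals (22.2 to 29.3 CPM); the same animal was highest in unswitched cells too, at 53.5 CPM. TOP2A in unswitched cells of male 2 stood at 18.5 CPM, against 5.72 to 7.51 CPM in the other animals, and this animal was also highest in switched cells at 15.6 CPM. Of 44 groups looked at in this way, 2 held such a sample, and chance alone flags about 1 in 20.

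Among the cells that the authors named Contamination, which entered no comparison, 70 of 525 had counts of 3 or more of the cell cycle genes, or 13.3%, at a median depth of 1931 UMIs. After thinning to 2000 UMIs the mean share over 6 animals was 0.774 ± 1.44%. MKI67 gave 11 UMIs in 10 of these cells.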

How the results depend on the processing

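Of 267 alternatives for single members, 227 kept direction and side of the threshold, 35 lost the call, 5 gained it and none reversed; of 90 alternatives for shares, 78 kept their direction and 12 reversed. Without the animal as block, calls fell to 104 genes and 1 member (CENPF, adjusted p = 0.0284, edgeR's quasi-likelihood test) for switched cells. Within memory cells 28 genes and 0 members were called, for IgA 263 genes and 1 member, and 0 genes each for kappa and for expanded clones.

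DESeq2 called 825 genes within memory cells, 0 for kappa, 35 for expanded clones, and 607 genes and 1 member for males. With no filter on low counts 36 genes were called for kappa, 67 for males and 6 members for IgA. With unnamed and immunoglobulin genes kept, 88 were called for kappa, 63 for expanded clones and 72 for males. Sums of 30 or more cells left 480 genes for IgA. Animal and memory subtype as blocks left 261 genes and 1 member, with several pairs of sums per animal counted as replicates.

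Leaving out 1 animal gave 1569 to 2327 genes and 5 to 9 members for switched cells, 794 to 1291 and 2 to 5 within memory cells (818 genes and 2 members without female 1, 794 genes without female 3), for IgA 586 to 739 and 2 to 3, 2 to 14 and 0 for kappa, 86 to 192 and 0 to 1 for expanded clones, and 7 to 136 and 0 for males. Share differences then ran from 11.4 to 15.8 points for switched cells, 6.53 to 11.6 points within memory subtypes, 3.88 to 13.7 for IgA, -2.24 to -1.09 for kappa, -2.14 to 1.60 for expanded clones and -19.4 to -15.4 for males. MKI67 failed the filter for IgA without female 1 and has no value there.

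Reversed share differences were -0.0923 at 1000 UMIs within memory cells, 0.0652 for kappa at 2000 UMIs, and for expanded clones -0.414 at 2000 UMIs, -0.337 at 1000 UMIs and -1.04 with 2 or more genes. In 3 settings chosen after seeing the data, MCM2 to MCM7, PCNA, RRM1, STMN1 and WEE1 were left out, with or without CENPF and KIF23, and with thinning. Reversals there were -0.0146 and -0.0469 within memory cells, 0.158 and 0.157 for kappa, and -0.297 for expanded clones. The cause of the reversals was not tested. Depth limits the score: at 2000 UMIs few cells outside antibody-secreting cells reach 3 genes, and 12 members had too few counts to be tested between switched and unswitched cells.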
